A study of Mus musculus with 4 samples.

Results

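The 9 genes described here encode transcription factors that drive the mesenchymal state of cells: Snai1, Snai2, Twist1, Twist2, Zeb1, Zeb2, Prrx1, Runx1 and Runx2. They were taken as a named list, out of 21755 protein-coding genes of the GENCODE annotation, and were located by the transcription start site (TSS) at the 5′ end of each gene model. H3K4me3 HiChIP was measured in MLg cells, a fibroblast line from mouse lung, in 4 libraries. HiChIP joins DNA ends that lie close together in the nucleus and then precipitates those on chromatin with the histone mark, here trimethylated lysine of histone H3 at promoters, so each valid pair gives 2 positions in contact. The Control library came from cells without added TGFB1 and without the miR-9 antagomiR. The TGFB1 library came from cells given 5 ng/ml TGFB1 for 4 h, starting 20 h after transfection. In TGFB1+miR-9-LOF the same TGFB1 treatment followed transfection with 60 nM of an antagomiR against miR-9, an inhibitor that pairs with the microRNA, and in miR-9-LOF the antagomiR was used alone. Cells were harvested at 24 h. The study describes the cells that did not get the miR-9 antagomiR as transfected with a control antagomiR, which the labels of the Control and TGFB1 libraries do not name. Each condition has 1 library from 1 cell line, so every difference below is a difference between libraries, with counting error only and no replicate check.

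The factors fall into families that meet on shared DNA. SNAI1 and SNAI2 are zinc finger repressors that bind E-boxes, the short motifs that also receive the zinc fingers of ZEB1 and ZEB2, and all of them can silence epithelial genes such as the E-cadherin gene. TWIST1 and TWIST2 are basic helix-loop-helix proteins that pair with E proteins, PRRX1 is a homeodomain protein of limb and connective tissue mesenchyme, and RUNX1 and RUNX2 bind DNA with their partner CBFB, RUNX2 being known best for bone. Fibroblasts are mesenchymal cells that express many of these factors without any stimulus, and TGFB1 is the classical inducer of several of them. H3K4me3 marks promoters in use, so the number of pair ends near a start reports the mark and, through the pairs, the contacts of that promoter.

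Levels were taken as pair ends within 2 kb of a start, per 1000000 ends of the library (EPM), so that all genes are compared over the same length. Wherever 4 values follow each other, they stand in the order Control, TGFB1, then the antagomiR with TGFB1, and last the antagomiR alone. The libraries held 15359978, 10864558, 14121095 and 15568047 valid pairs. They differed in how sharply the mark was enriched, since 9.69%, 6.99%, 4.09% and 4.74% of ends lay in the 8645 enriched regions. An enriched region is a run of 1-kb bins with over 4-fold the local density of ends. An enriched region lay within 2 kb of the start of 8225 coding genes, 37.8% of all. Part of the fibroblast markers carried the mark and the markers of other cells did not: 8 of 15 mesenchymal genes had an enriched region, against 0 of 15 epithelial, 0 of 5 endothelial and 0 of 5 leukocyte genes.

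All 9 genes had an H3K4me3-enriched region at a coding-transcript start, but in 3 of them it was not the start at the 5′ end of the gene. Of all coding genes 40.2% had one at any coding start and 37.8% at the 5′ end. Snai1, Snai2, Twist1, Twist2, Zeb1 and Prrx1 were marked at the 5′ end. Zeb2, Runx1 and Runx2 were near the median coding promoter or below it there, and were marked at a start further into the gene. With every gene read at its own best start, Runx2 and Twist2 stood close to the top of all coding genes by EPM. The other 7 ranged from 2.00-fold to 4.77-fold over the median coding promoter. EPM is not corrected for differences in coverage between chromosomes, given below.

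Twist2 had the highest level of the 9 at the gene TSS. It held 49.2, 37.9, 21.0 and 25.2 EPM, where the median coding promoter held 3.36, 3.13, 2.84 and 2.83. That is 10.8-fold over the median as a mean of the 4 libraries, rank 28 of 21755. The enriched region covered 3 kb around the start, from position -1460 to 1539 (chr1:91800001-91803000, mm10), and also takes in the start of the antisense transcript Gm29100, 1476 bases downstream, whose ends cannot be told apart from those of Twist2. Twist1, its paralog, reached 11.9, 8.52, 5.11 and 6.52 EPM, 2.60-fold over the median, under a region of the same width. Read against the local density of ends at 20 to 500 kb, both were high: Twist1 was at percentile 98.8 and Twist2 at 98.6 of coding promoters. On that scale the order of the genes changed. Prrx1 was at percentile 95.4, Snai2 at 91.4, Zeb1 at 88.5 and Snai1 at 77.1. At the gene TSS Zeb2 was at 65.2, Runx1 at 53.4 and Runx2 at 11.5.

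By EPM, Prrx1 and Snai1 followed at the gene TSS. Prrx1 held 18.9, 12.9, 8.37 and 8.71 EPM and Snai1 16.8, 13.6, 7.66 and 8.16. Gm37644, a gene model annotated as awaiting experimental proof, starts 4643 bases downstream of the Prrx1 start, and the pseudogene Gm11474 starts at position -2753 from the Snai1 start, both outside the window for ends. The means of Prrx1 and Snai1 over the median promoter were 3.97-fold and 3.76-fold, and the 95% counting intervals of both genes overlapped in each of the 4 libraries. Snai2 held 10.4, 7.73, 4.36 and 4.76 EPM, 2.21-fold over the median. Its region began 149 bases downstream of the start and ran to 2148 bases, over most of this short gene. Zeb1 held 12.5, 8.84, 3.90 and 3.98 EPM, 2.37-fold over the median. In Control, Zeb1 lay above Twist1 and Snai2, while in both antagomiR libraries it lay below both, and the 95% counting intervals overlapped in each case except against Twist1 in miR-9-LOF.

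**Figure D1:**
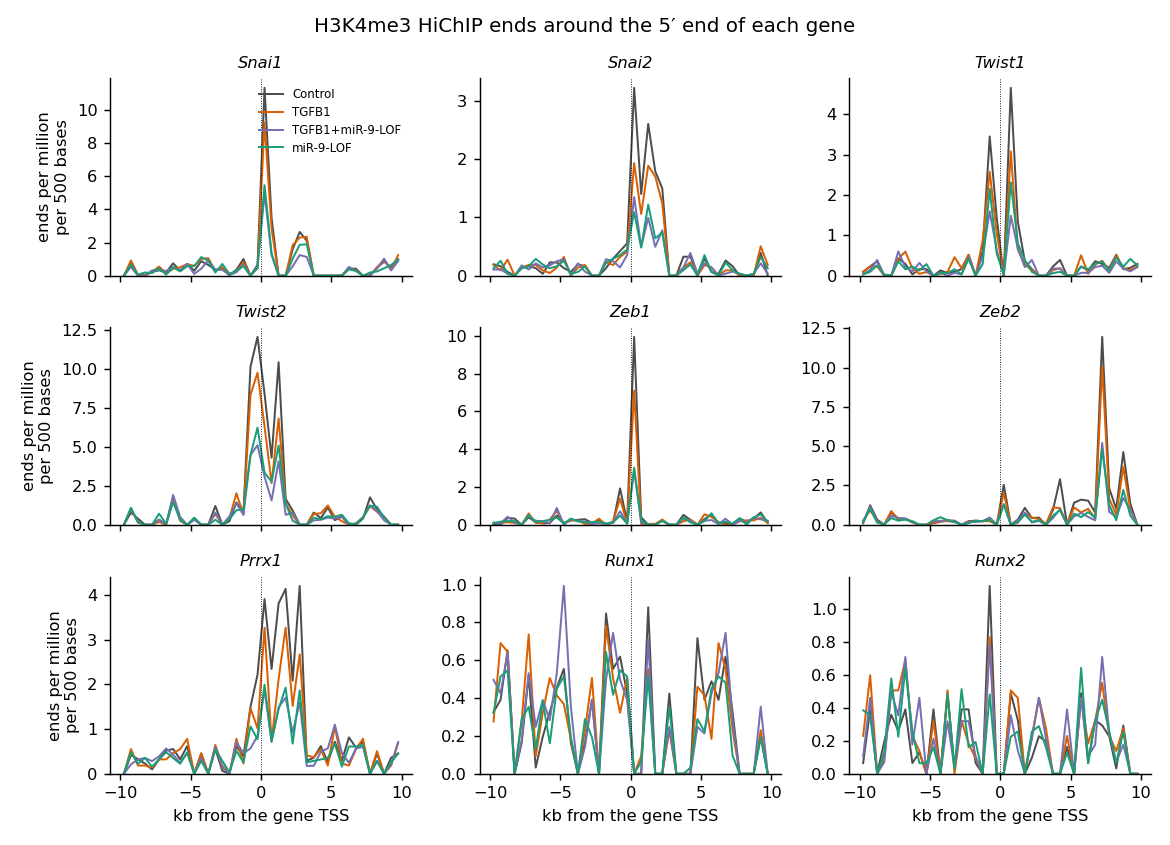
Pair ends per 1000000 ends of the library (EPM) in bins of 500 bases (y axis, each panel on its own scale from 0) against the distance from the gene TSS in kb, downstream positive, for the 9 genes, with 1 line per library. Twist2, Twist1, Snai1, Snai2, Prrx1 and Zeb1 peak within 3 kb of the start, Zeb2 peaks about 7 kb downstream, and the flat panels of Runx1 and Runx2 stay below 1.2 EPM.

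Zeb2 was marked at its second start. At the gene TSS it held 4.85, 3.59, 3.19 and 2.89 EPM, 1.18-fold over the median. The start 6943 bases downstream, used by 15 annotated coding transcripts, held 24.96, 19.2, 10.2 and 10.8 EPM, and beside it begins the antisense transcript Zeb2os. The genes of miscellaneous RNA Gm27761, Gm27404 and Gm27645 start 6224, 4082 and 3487 bases downstream of the gene TSS. The remaining coding start, 94480 bases into the gene, held 0.964 to 1.91 EPM. The mark was thus on the start shared by most Zeb2 transcripts, in every library.

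Runx1 and Runx2 each have a distal and a proximal promoter that make proteins with different amino termini, and both were marked at the proximal one only. At the distal start Runx1 held 3.32, 2.76, 2.84 and 2.70 EPM, 0.94-fold the median promoter, whereas at the proximal start, 130024 bases further in, it held 24.8, 17.6, 9.15 and 8.19. Runx2 held 2.02, 1.89, 1.38 and 1.16 at the distal start, 0.52-fold the median, and 58.2, 41.4, 21.9 and 23.4 at the proximal start 80104 bases further in. By the mean of the 4 libraries the proximal Runx2 start was the highest of all starts of the 9 genes. In miR-9-LOF Twist2 was higher, at 25.2 EPM against 23.4. Among coding genes read at their start with the most ends, Runx2 ranked 18 of 21755, Twist2 34, Zeb2 1312 and Runx1 1670.

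The sequences before both starts of Runx1 and Runx2 are given here because they differ in the number of CpG dinucleotides. Each is the 250 bases before the start on the gene's strand, read 5′ to 3′ from the GRCm38.p6 genome of RefSeq, with every CG in capitals.
Runx1 distal, chr16:92826150-92826399, minus strand: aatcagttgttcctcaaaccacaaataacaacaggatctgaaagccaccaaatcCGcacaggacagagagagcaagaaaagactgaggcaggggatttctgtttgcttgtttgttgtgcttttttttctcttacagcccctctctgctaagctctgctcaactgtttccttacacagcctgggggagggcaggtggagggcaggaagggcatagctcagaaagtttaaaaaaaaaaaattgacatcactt
Runx1 proximal, chr16:92696126-92696375, minus strand: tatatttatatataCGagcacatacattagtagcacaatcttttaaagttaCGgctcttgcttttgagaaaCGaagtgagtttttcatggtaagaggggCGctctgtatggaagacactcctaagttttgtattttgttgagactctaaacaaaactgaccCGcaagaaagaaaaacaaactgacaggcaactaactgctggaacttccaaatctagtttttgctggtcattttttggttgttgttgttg
Runx2 distal, chr17:44814798-44815047, minus strand: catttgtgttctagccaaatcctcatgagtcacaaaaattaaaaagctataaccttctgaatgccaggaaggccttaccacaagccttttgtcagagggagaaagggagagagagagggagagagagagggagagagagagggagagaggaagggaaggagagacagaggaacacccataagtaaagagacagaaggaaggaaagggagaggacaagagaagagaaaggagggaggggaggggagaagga
Runx2 proximal, chr17:44734694-44734943, minus strand: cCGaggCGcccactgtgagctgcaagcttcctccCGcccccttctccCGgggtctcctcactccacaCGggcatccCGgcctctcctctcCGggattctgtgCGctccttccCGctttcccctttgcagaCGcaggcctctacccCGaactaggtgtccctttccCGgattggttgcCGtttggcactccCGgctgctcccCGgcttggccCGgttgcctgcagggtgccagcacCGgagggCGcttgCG
The distal Runx2 stretch holds 0 CG and the proximal one 19, and the Runx1 stretches hold 1 and 5. The median coding promoter holds 8, the median marked promoter 16 and the median unmarked promoter 4. The part of CpG number in the mark at these starts was not tested. Over 500 bases on either side of the start, the ratio of observed to expected CpG was 0.31 at the distal and 0.81 at the proximal Runx1 start. For Runx2 the ratio was 0.16 distally and 0.59 proximally. The median was 0.76 over marked and 0.29 over unmarked coding promoters.

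**Figure D2:**
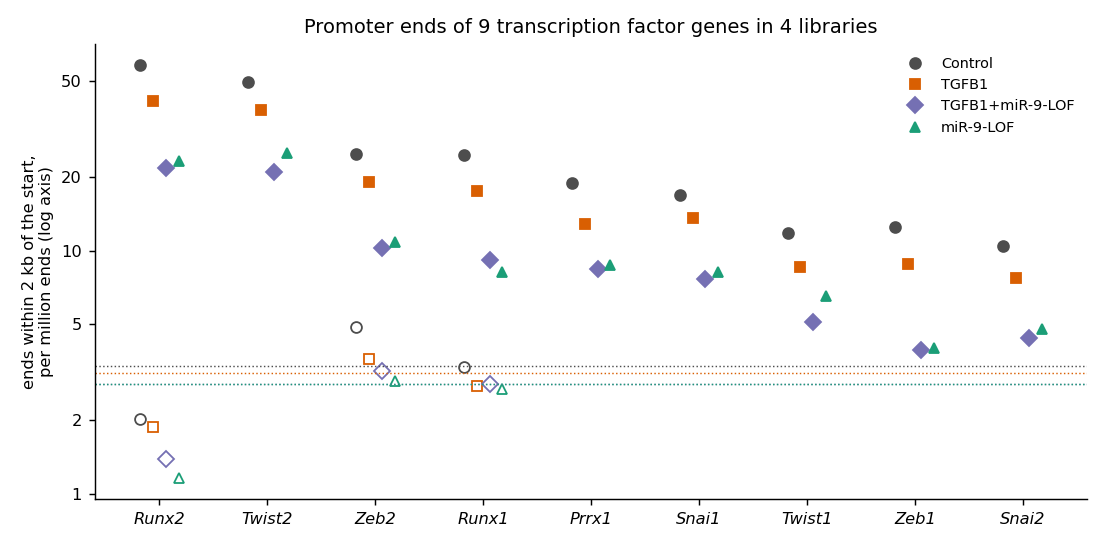
Ends within 2 kb of a start per 1000000 ends (EPM, y axis, log scale) for the 9 genes, ordered by their mean, with 1 symbol per library. Filled symbols give the start with the most ends and open symbols the 5′ end of Zeb2, Runx1 and Runx2 where it is another start, with dotted lines at the median coding promoter of each library. Filled Control symbols lie above the TGFB1 symbols, and these above both antagomiR symbols, in all 9 genes.

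Stretches that can fold into a G-quadruplex, a four-stranded structure of stacked guanines, stood within 250 bases before the marked start of 5 of the 9 genes. The motif searched was 4 or more runs of at least 3 G separated by 1 to 7 bases, on either strand. The separating bases could be G too, so a long tract of G, as at Twist2, counts as several runs. By this rule 18.6% of all coding promoters and 24.7% of the marked ones hold the motif in the same 250 bases. The genes were Twist1, Twist2, Prrx1, Zeb1 and, at its downstream start, Zeb2. The matches outside Zeb1 are shown because G-quadruplexes at promoters are a subject of the study, with the match in capitals, on the gene's strand, with 10 flanking bases on each side, from the same genome.
Twist1, chr12:33957490-33957534, plus strand: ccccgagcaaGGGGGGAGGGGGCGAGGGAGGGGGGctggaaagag
Twist2, chr1:91801319-91801361, plus strand: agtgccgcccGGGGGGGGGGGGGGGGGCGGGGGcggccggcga
Zeb2 downstream start, chr2:45110652-45110701, minus strand: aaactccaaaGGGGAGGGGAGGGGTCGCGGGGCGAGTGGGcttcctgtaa
Prrx1, chr1:163313744-163313785, minus strand: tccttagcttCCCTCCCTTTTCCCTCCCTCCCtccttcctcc
Twist1, Twist2 and Zeb2 carry the G-rich strand in the sense of the gene, and Prrx1 the C-rich strand. Over 2 kb on either side, matches numbered 10 at the downstream Zeb2 start, 7 at Twist1, 7 at Zeb1, 4 at Snai1, 3 at Twist2 and 0 at Snai2, and the median coding promoter held 1. These are matches of letters and no structure was measured here.

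The mature microRNA that the antagomiR inhibits is shown with its seed, bases 2 to 8, in capitals (RefSeq, GRCm38.p6).
mmu-miR-9-5p: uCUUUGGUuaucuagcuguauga
It is encoded at 3 loci, Mir9-1, Mir9-2 and Mir9-3. The complement of the seed, ACCAAAG, was searched on both strands. It was found in the 250 bases before 0 of the 9 gene starts, against 3.65% of all coding promoters. Within 2 kb of the start it occurred at Snai1 (1), Twist1 (1), Twist2 (2) and Zeb1 (1) and at the downstream starts of Zeb2 (1) and Runx1 (1), where 50.3% of coding promoters hold at least 1. The Snail and ZEB E-box CACCTG, counted within 2 kb on both strands as a subset of the general E-box, occurred 14 times at Snai1, 7 at Snai2, 5 at Zeb1, 3 at Twist2, 1 at Prrx1 and 0 at Twist1 and the downstream Zeb2 start. The proximal starts held 3 (Runx1) and 1 (Runx2), the distal ones 1 and 0, and the median coding promoter 3. The RUNX motif TGTGGT occurred 16 times at the distal Runx1 start, 10 times at the downstream Zeb2 start and 9 times at the distal Runx2 start, and once at each proximal start. The other 6 genes held 0 to 4 and the median coding promoter 3.

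Cutting sites set how many ends a window can give. MboI cuts at GATC, and the 4 kb around the start held 15 sites at Twist2, 14 at the proximal Runx2 start, 16 at the proximal Runx1 start and 5 at Zeb1, with a median of 9 over coding promoters. Coverage also differed between chromosomes, by ends of pairs 20 kb to 2 Mb apart in the 4 libraries. The median 10-kb bin held 215 such ends on the chromosome of Runx2. It held 177 or 178 for Twist2, Prrx1, Snai1 and Zeb2, and 100 to 119 for Twist1, Snai2, Runx1 and Zeb1. The part of site number and of coverage in the order of the levels and contacts was not tested.

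Contacts were counted as pairs 20 kb to 2 Mb apart with an end within 10 kb of the start, and folds over the median promoter were formed per 1000000 such pairs. This window takes in the one used for ends, so ends and contacts share pairs and are not independent measures. Twist2 again led at the gene TSS, with 829, 487, 422 and 505 pairs, 3.98-fold over the median promoter and rank 130 of 21755. Zeb2 followed at 3.10-fold, in a window that also takes in its marked downstream start. Prrx1 had 2.39-fold, Snai1 2.36-fold, Zeb1 1.65-fold, Snai2 1.38-fold and Twist1 1.29-fold the median contacts. Runx1 and Runx2 had 1.103-fold and 0.86-fold at the distal start. At the proximal start Runx1 had 654, 362, 289 and 284 pairs and Runx2 1125, 593, 482 and 567, which put Runx2 at rank 28 of 21755 coding genes read at their start with the most ends. Both Runx genes thus had more pairs at the proximal than at the distal start in every library.

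The contacts differed between genes in side and in reach. Those of Snai2 lay almost entirely downstream: 95.4%, 93.6%, 95.3% and 87.8% of its pairs had their far end on that side. Over the 4 libraries this was 726 of 778 pairs, 93.3% (95% Clopper-Pearson interval 91.3 to 94.97), and 99.96% of coding promoters had this share or a lower one. For bins at least 30 kb away, distance and coverage gave an expectation of 50.2%. Of all ends in the same span 46.4% lay downstream, and 0 upstream bins were without ends. Snai2 pairs were long as well: 9.51% spanned under 100 kb, against a median of 36.6% over coding promoters, and the median distance was 443.6 kb.

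Other genes leaned less. Snai1 pairs lay 73.1% downstream and were short, with 54.1% under 100 kb and a median distance of 87.7 kb. Twist1 pairs lay 68.2% downstream, with 15.3% under 100 kb and a median distance of 315.6 kb. Prrx1 and Zeb1 leaned upstream, with 35.5% and 36.2% of pairs downstream, and so did the proximal Runx1 start with 32.6%. The proximal Runx2 start leaned downstream with 62.8%, toward the body of the gene and away from its distal start. Zeb2 had 43.2% of its pairs beyond 500 kb, against a median of 19.2%. Twist2 had no lean, at 52.1% downstream and 39.5% under 100 kb.

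**Figure D3:**
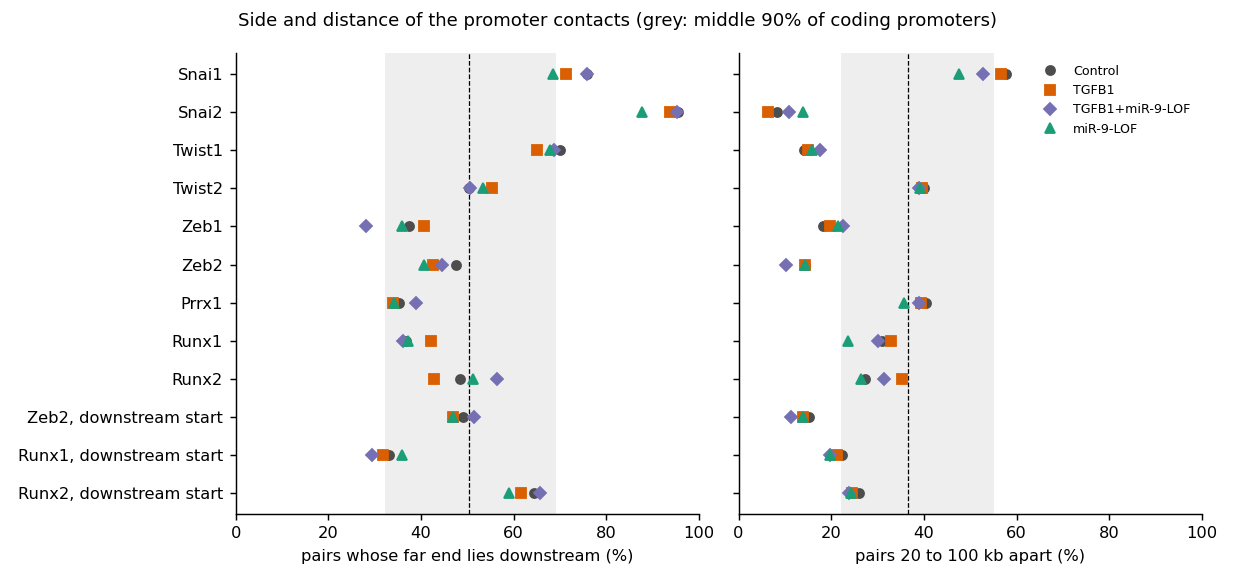
Share of promoter pairs whose far end lies downstream of the start (left, percent) and share of pairs 20 to 100 kb apart (right, percent), by gene and start, with 1 symbol per library. The grey band holds the middle 90% of coding promoters and the dashed line is their median. Snai2 lies outside the band on both sides in all 4 libraries.

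Distal partners were the bins of 10 kb with the largest excess of pairs over an expectation from distance and coverage, summed over the 4 libraries. They were picked for their excess, so the ratios are high by selection. Of 25 bins named, 2 held an enriched region and 1 a coding TSS. For Snai1 the leading bin lay 66.8 kb downstream (chr2:167600001-167610000), within Ube2v1, and held 55, 34, 25 and 25 pairs, 139 in all where 26.4 were expected. The next Snai1 bin, 46.8 kb downstream, held 87 pairs with 29.98 expected.

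Snai2 partners all lay downstream. The leading bin at 479.1 kb (chr16:15180001-15190000) held 10, 4, 3 and 2 pairs with 3.69 expected in all, and no gene starts in it. The next, at 929.1 kb (chr16:15630001-15640000), holds the shared promoter region of Mcm4, a subunit of the replicative helicase, and Prkdc, the kinase of DNA end joining, and had 4, 4, 1 and 5 pairs with 3.02 expected. It was the 1 named bin with a coding TSS.

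All 3 Twist1 partners lay within the gene of histone deacetylase 9, Hdac9, whose sequence is known to harbour Twist1 enhancers. They stood 477.3, 527.3 and 697.3 kb downstream with 10 pairs each in the 4 libraries, where 3.12, 3.04 and 2.02 were expected. Counts of 10 are at the minimum for naming and give no comparison between libraries. Twist2 had weaker excess, 97 pairs with 50.8 expected at 63.5 kb downstream and 36 with 14.01 expected at 226.5 kb upstream.

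Prrx1 had its leading bin 601.3 kb upstream within Kifap3, with 7, 1, 3 and 3 pairs and 2.60 expected. Zeb2 had its bins 477.6, 927.6 and 1327.6 kb upstream, the farthest with 15 pairs and 1.73 expected, at the start of the noncoding gene Gm13470. Anchored at the proximal starts, Runx1 had 21 pairs with 3.90 expected at 598.9 kb upstream and Runx2 76 pairs with 20.0 expected at 279.7 kb downstream (chr17:44450001-44460000). At the distal starts the bins named for their excess held 10 to 17 pairs for Runx1, and 1 bin, with 12 pairs, was named for Runx2. Pairs joining the distal and proximal starts numbered 49 for Runx1 with 47.9 expected, and 34 for Runx2 with 62.7 expected.

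Of the 3 bins named for Zeb1, the 2 leading ones held fewer pairs in the antagomiR libraries. The bin 393.1 kb downstream, the other named bin with an enriched region, held 14, 12, 2 and 2 pairs, 30 in all with 8.90 expected. The bin 426.9 kb upstream held 9, 9, 1 and 4 pairs. The remaining bin, 446.9 kb upstream, held 3, 2, 5 and 2 pairs, the most with TGFB1 and the antagomiR together. The single bins were not tested. They were named for their excess in the sum of the libraries, and Control and TGFB1 gave most pairs of the 2 leading ones. Lower counts in the antagomiR libraries are thus partly set by that choice. The share of Zeb1 pairs at 100 to 500 kb was 70.6% (95% Clopper-Pearson interval 65.8 to 75.1), 70.3% (63.5 to 76.5), 60.6% (52.6 to 68.2) and 55.8% (48.2 to 63.2). The intervals of Control and of the antagomiR alone do not overlap. The median promoter had 41.9% of pairs at this distance, and the share of ends in enriched regions, 9.69% and 4.74%, also differed between these 2 libraries. Its part in the difference was not tested.

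**Figure D4:**
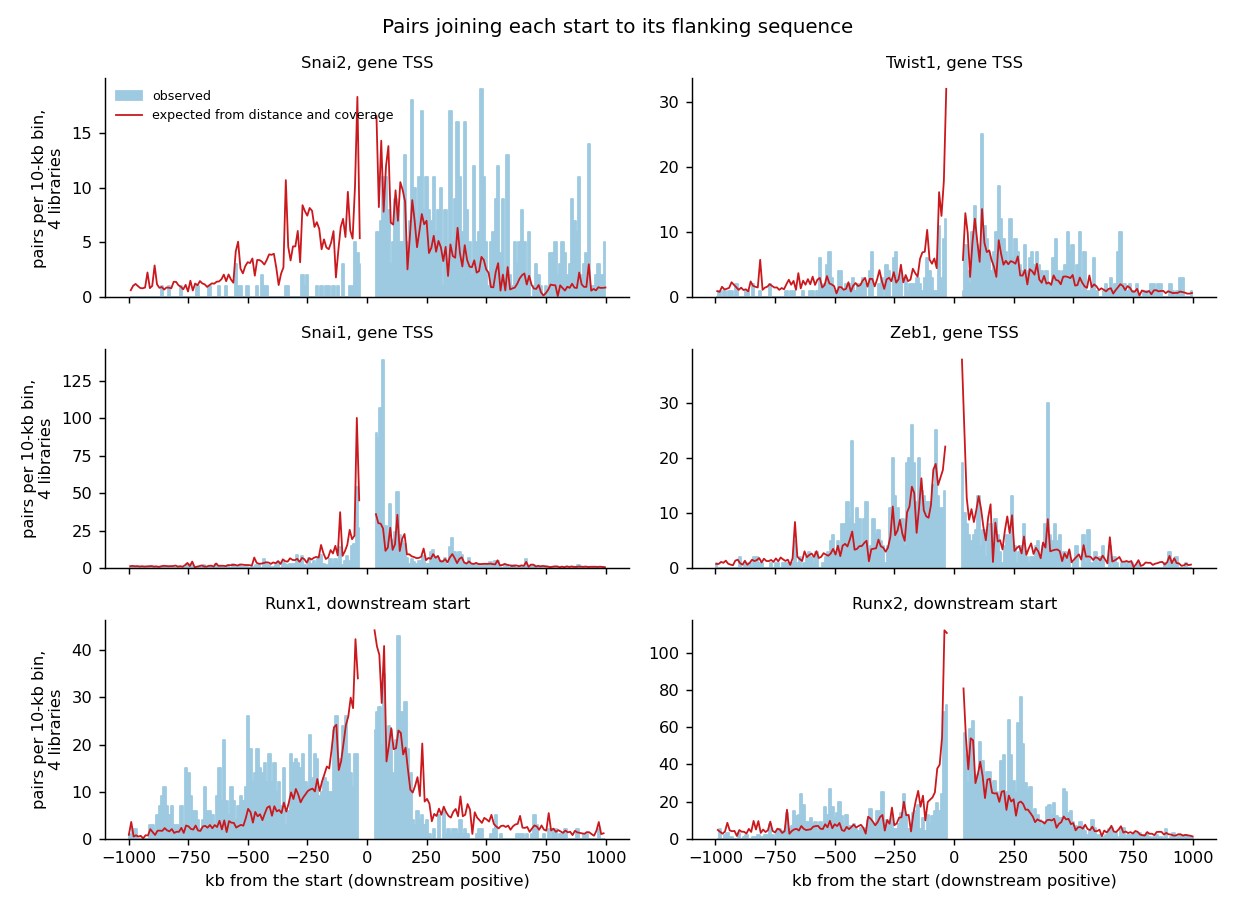
Pairs per 10-kb bin, summed over the 4 libraries (y axis, each panel on its own scale from 0), against the distance in kb from the start, downstream positive, for 6 starts. Blue columns are observed pairs and the red line the expectation from distance and coverage. Snai2 shows almost no pairs upstream where the line predicts them, and the bin of Zeb1 393.1 kb downstream stands above its line.

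TGFB1 over Control asked whether these promoters gained the mark or contacts after 4 h of TGFB1. Scaled by library totals, the log2 ratio of ends at the gene TSS lay between -0.55 and -0.09 in the 9 genes. The median ratio over all coding promoters was -0.24, and over marked ones -0.44, so the ratio of each gene was read against the median of the coding promoters nearest to it in level. On that scale the 9 genes ranged from -0.25 (Zeb2) to 0.14 (Snai1), and 0 of 9 passed the two-sided exact binomial test after Benjamini-Hochberg adjustment over all coding promoters, where 0.981% of those tested did. For contacts they ranged from -0.24 (Zeb1) to 0.27 (Runx2), again with 0 of 9 called and 0.685% of all. On that scale, in neither measure was any exact p of the 9 genes under 0.05 before adjustment. With the median of all coding promoters as the centre, Prrx1 ends (-0.30) passed as lower (exact test, adjusted p = 0.0362). With that centre Prrx1 contacts (-0.34) and Zeb2 contacts (-0.28) passed as lower too (exact test, adjusted p = 0.0336 and 0.0452).

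The intervals cover counting error only, on the scale relative to promoters of like level. A shift shared by those promoters, or variation between replicate cultures, would not show in them. Twist2, with 824 ends in TGFB1 and 1510 in Control, had a relative log2 ratio of 0.07 (95% interval -0.05 to 0.19), and Snai1, with 296 and 517, one of 0.14 (-0.07 to 0.35). Zeb1 had -0.09 (-0.35 to 0.16) and Prrx1 -0.10 (-0.31 to 0.11). At the start with the most ends, Runx2 had -0.05 (-0.17 to 0.06), Zeb2 0.09 (-0.09 to 0.26) and Runx1 -0.03 (-0.21 to 0.15). There too 0 of 9 were called for ends (1.28% of all coding genes) and 0 of 9 for contacts (0.842%). By counting error alone, a change of 1.5-fold relative to promoters of like level lies outside each end interval printed here. At the gene TSS, where Zeb2, Runx1 and Runx2 have no enriched region and few ends, it lies inside their end intervals, which were -0.67 to 0.15, -0.69 to 0.27 and -0.80 to 0.40. It also lies inside the interval of the Runx2 contacts there, -0.12 to 0.65.

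MiR-9-LOF over Control asked what the antagomiR alone did. At the gene TSS Runx2 and Zeb1 stood lowest for ends and Zeb1 and Twist1 for contacts, while at the start with the most ends Zeb1 and Runx1 stood lowest in both measures. Relative to promoters of like level, 8 of 9 genes were below 0 for ends at the gene TSS and 2 were called lower, where 5.00% of all coding promoters were. For contacts 5 of 9 were below 0 and 3 were called lower, against 5.33%. At the start with the most ends, 3 of 9 were called lower for ends (5.43% of all) and 5 of 9 for contacts (5.37%). None was called higher, where 4.10% of all coding promoters were for ends and 4.60% for contacts at the gene TSS.

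Zeb1 had 124 ends in miR-9-LOF and 384 in Control, a relative log2 ratio of -0.80 (95% interval -1.11 to -0.51, exact binomial test, adjusted p = 8.66e-06). Its contacts, which share pairs with these ends, numbered 391 in Control and 181 in miR-9-LOF. Their relative log2 ratio was -0.62 (-0.88 to -0.36, adjusted p = 0.000216, exact test). Zeb1 lies at chr18:5591860 on the plus strand, and its region of 2 kb held 12.4, 8.56, 3.76 and 3.79 EPM in the 4 libraries. These values are scaled by library totals only. On that scale the regions of the other genes were lower in both antagomiR libraries too, as at Twist2 with 46.1, 34.5, 18.9 and 22.9 EPM. Gm10125, annotated as a processed transcript, and Gm2238, a gene model awaiting experimental proof, start within 2 kb of the Zeb1 start and share its ends.

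Runx1 was called at the proximal start, with 255 ends in miR-9-LOF and 760 in Control, a relative log2 ratio of -0.61 (-0.83 to -0.41, exact binomial test, adjusted p = 7.57e-07). Its contacts there fell from 654 to 284 pairs, with a ratio of -0.52 (-0.72 to -0.32, exact test, adjusted p = 6.81e-05). At the distal start, which carries no enriched region, Runx1 had 84 and 102 ends and a ratio of -0.14 (-0.57 to 0.29). With the median of marked promoters as the centre this turned to 0.61 and passed as higher (exact test, adjusted p = 0.0110). That median was -0.91 for ends, against -0.02 over unmarked promoters, so this centre raises the ratio of a typical unmarked start. Runx2 had -0.27 (-0.39 to -0.14, exact test, adjusted p = 0.00119) for ends at the proximal start, from 727 and 1785 ends. For contacts it had -0.24 (-0.39 to -0.10, exact test, adjusted p = 0.0172), which became -0.15 with an adjusted p = 0.197 in the exact test when a narrower set of 51 neighbouring promoters set the centre. The distal Runx2 start was called on 36 and 62 ends, at -0.87 (-1.51 to -0.26, exact test, adjusted p = 0.0406), was not called with the median of all promoters as the centre, and turned to 0.11 with that of marked promoters. The distal contacts were 0.12 in both genes, not called, and with the marked centre 0.39 for Runx1 and 0.54 for Runx2. These passed as higher (exact test, adjusted p = 0.0351 and 0.00969). The median contact ratio was -0.56 over marked and 0.02 over unmarked promoters, so the same holds for contacts.

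Snai2 and Twist1 were called lower for contacts and not for ends. Snai2 had 172 pairs in miR-9-LOF and 305 in Control, a ratio of -0.40 (-0.68 to -0.13, exact test, adjusted p = 0.0367), beside -0.31 (-0.60 to -0.02) for ends. Twist1 had 152 and 277 pairs, a ratio of -0.49 (-0.78 to -0.20, exact test, adjusted p = 0.0149), beside -0.01 (-0.26 to 0.24) for ends. Both contact calls were lost with a window of 5 kb and with the median of marked promoters as the centre, at exact-test adjusted p = 0.132 and 0.102 with the narrow window. With the marked centre the ratios were -0.25 for Snai2 and -0.29 for Twist1 (exact test, adjusted p = 0.132 and 0.0915). When both mates had to map with a quality score of 30 or more, Snai2 missed the threshold as well, at an exact-test adjusted p = 0.0535.

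Twist2, Snai1, Prrx1 and Zeb2 were not called. Twist2 had 0.08 (-0.05 to 0.20) for ends and 0.03 (-0.14 to 0.19) for contacts, Snai1 -0.11 (-0.34 to 0.11) and 0.04 (-0.17 to 0.25), and Prrx1 -0.18 (-0.39 to 0.03) and -0.22 (-0.43 to -0.01). With the median of all coding promoters as the centre, Twist2 turned to -0.56 for ends and -0.45 for contacts, both passed as lower (exact test, adjusted p = 7.69e-18 and 5.17e-07). The Snai1 contacts turned to -0.34 with that centre and passed as lower too (exact test, adjusted p = 0.00635). Without a turn of direction, Snai1 ends and both measures of Prrx1 passed as lower with it, at -0.64, -0.72 and -0.60, as did the Zeb2 contacts at the gene TSS, at -0.67. At its downstream start Zeb2 had -0.21 (-0.40 to -0.02) for ends and -0.25 (-0.44 to -0.06) for contacts. The Zeb2 contacts missed the threshold in the exact test at an adjusted p = 0.0654 and passed it at 0.0409 with the 51 nearest promoters as the centre. With the median of marked promoters as the centre, the Prrx1 contacts at the gene TSS had -0.28 and passed the exact test at an adjusted p = 0.0184. With that centre Zeb2 passed the exact test in both measures at its downstream start, at adjusted p = 0.00382 for ends and 0.000259 for contacts. Twist2 held 25.2 EPM in miR-9-LOF against 49.2 in Control, and the median ratio of its neighbours in level was -1.04 on the log2 scale. Centring on those neighbours removes a fall that they share, and the source of that fall was not tested.

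**Figure D5:**
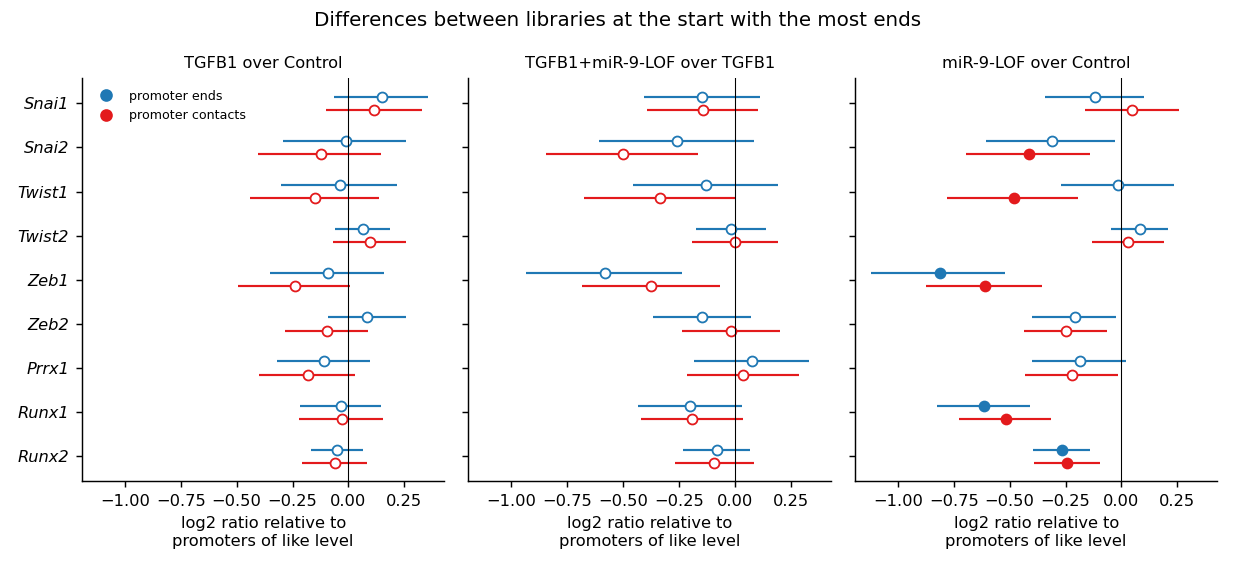
Log2 ratio between libraries relative to coding promoters of like level (x axis) for the 9 genes at the start with the most ends, in the 3 comparisons. Blue is promoter ends, red promoter contacts, bars are 95% counting intervals, and filled symbols passed the exact test after adjustment. Filled symbols appear only for miR-9-LOF over Control, where Zeb1 and Runx1 lie farthest to the left.

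The comparison of TGFB1+miR-9-LOF over TGFB1 asked the same of the antagomiR under TGFB1. No gene was called: 0 of 9 for ends (0.610% of all coding promoters) and 0 of 9 for contacts (0.219%) at the gene TSS, and 0 of 9 for both at the start with the most ends (0.637% and 0.257%). Zeb1 was lowest for ends with 110 and 192, a relative log2 ratio of -0.58 (-0.93 to -0.24), which missed the threshold in the exact test at an adjusted p = 0.0788. With the median of all or of marked promoters as the centre, the Zeb1 ends were at -0.86 and -0.50 and passed the exact test, at adjusted p = 1.39e-05 and 0.0188. With the median of all promoters, ends of Snai1 (-0.51), Snai2 (-0.50), Twist1 (-0.41) and Twist2 (-0.53) passed as lower too. So did contacts of Snai1 (-0.37), Snai2 (-0.59), Twist2 (-0.36), Zeb1 (-0.49) and Zeb2 (-0.37). The shares of all promoters called with that centre are given in the closing section. Snai2 was lowest for contacts with 128 and 173 pairs, at -0.51 (-0.85 to -0.17, exact test, adjusted p = 0.141). The proximal Runx1 start had -0.20 (-0.43 to 0.03) for ends. Relative to promoters of like level, Zeb1 ends at the gene TSS were below 0 in both antagomiR comparisons, which share no library. The same held for Snai1, Snai2, Twist1 and, at its unmarked distal start, Runx2. Twist1 was at -0.01 in miR-9-LOF over Control. The centring puts the median promoter at 0 in each comparison, and the share of all coding promoters below 0 in both was not counted. On that scale Zeb1 and Runx2 each passed the threshold in 1 of the comparisons.

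The effect of TGFB1 with and without the antagomiR was compared directly from the 4 counts of each promoter, by an exact conditional test. The difference of the relative log2 ratios ranged from -0.12 (Twist1) to 0.41 (Zeb2) for ends and from -0.17 (Snai1) to 0.26 (Prrx1) for contacts at the gene TSS. It was called in 0 of 9 genes for both, where 0.130% of coding promoters were called for ends and 0.00% for contacts, with 1805 and 1497 promoters at an unadjusted exact p under 0.05. At the start with the most ends it was also called in 0 of 9 genes for both measures, where 0.201% of coding genes were called for ends and 0.00% for contacts, with 1804 and 1501 at an unadjusted exact p under 0.05. The interval left out 0 for the ends of Runx1 and Runx2 and the contacts of Runx1. At the proximal Runx1 start the difference for ends was 0.41 (95% interval 0.11 to 0.72, exact test, adjusted p = 0.380). The relative log2 ratio for TGFB1 there was -0.03 without the antagomiR and 0.38 with it. The raw counts, from libraries of unequal depth, were 383 ends with TGFB1 and 760 in Control. In the antagomiR libraries they were 258 with TGFB1 and 255 without it. For contacts the proximal Runx1 difference was 0.32 (0.02 to 0.62, exact test, adjusted p = 0.674). The proximal Runx2 difference for ends was 0.20 (0.0021 to 0.39, exact test, adjusted p = 0.572).

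Most partners of these factors were marked. Of 12 genes for paralogs, dimerization partners and corepressors, 8 had an enriched region, with Tcf3, an E protein that pairs with TWIST proteins, highest at 6.30-fold over the median promoter, and Runx3, the family member of lymphoid cells, lowest at 0.47-fold. In TGFB1 over Control 0 of 12 were called for ends (0.981% of all coding promoters) or contacts (0.685%). In miR-9-LOF over Control 1 of 12 was called lower for ends, beside 5.00% of all, and 2 of 12 for contacts, beside 5.33%. They are named here after their values were seen: the E protein gene Tcf4 for ends (-0.71, 95% interval -1.15 to -0.29), and Cbfb, the RUNX cofactor (-0.41, -0.69 to -0.14), and the demethylase gene Kdm1a (-0.43, -0.74 to -0.13) for contacts. The list median was -0.12 for ends and -0.19 for contacts, beside -0.18 and -0.22 for the 9 factors.

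Mesenchymal marker genes had a median of 2.26-fold over the median coding promoter, beside 2.37-fold for the 9 factors. Loxl1, a crosslinker of elastin, was highest at 6.05-fold and Col3a1 lowest at 0.61-fold. In TGFB1 over Control 0 of 15 were called for ends, beside 0.981% of all, and 0 of 15 for contacts, beside 0.685%. In miR-9-LOF over Control 2 of 15 were called lower in each measure, beside 5.00% of all coding promoters for ends and 5.33% for contacts. The collagen gene Col1a2 (-0.61, -0.998 to -0.25) and Dcn (-0.60, -1.02 to -0.18) were called lower for ends, and the receptor gene Pdgfra (-0.31, -0.46 to -0.17) and Sparc (-0.42, -0.67 to -0.19) for contacts, all named after their values were seen. Epithelial marker genes, which include the E-cadherin gene, had a median of 0.82-fold, from 0.38-fold at Ocln to 2.23-fold at Ovol1, and none had an enriched region. The calls among them were all higher, also named after their values were seen. In TGFB1 over Control 2 of 15 were called higher for ends, beside 0.486% of all coding promoters, namely Cldn7 (1.22, 0.54 to 1.94) and Krt19 (0.93, 0.49 to 1.38). In miR-9-LOF over Control 2 of 15 were called higher in each measure, beside 4.10% of all for ends and 4.60% for contacts. They were Cldn7 (0.93, 0.27 to 1.64) and Ovol1 (0.86, 0.58 to 1.14) for ends, and Cldn7 and Krt19 for contacts. The Control library is shared by both comparisons, and Cldn7 had 29 ends there against 50 in TGFB1 and 58 in miR-9-LOF. Of the genes of other cells, 1 of 5 endothelial genes was called higher in miR-9-LOF over Control for ends, beside 4.10% of all. This was Pecam1 (0.71, 0.33 to 1.11), at 1.16-fold over the median promoter without an enriched region. Of the leukocyte genes 0 of 5 were called in any comparison, where at most 5.33% of all coding promoters were called in 1 direction. Tie1 was the lowest of the endothelial genes at 0.35-fold, and the leukocyte genes ranged from 0.46-fold at Ptprc to 1.06-fold at Itgam.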

How the data were processed

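Per the submitters' processing notes and the methods of the study, reads were aligned to mm10 and filtered to valid pairs with HiC-Pro, which assigns ends to MboI fragments and removes duplicates. The authors deposited 1 line per valid pair, with the position of both ends and the mapping quality score of each, and the lines were counted here. Starts came from GENCODE vM21. Enriched regions were 1-kb bins with a 4-fold excess over the local density at a false discovery rate of 0.01. Ratios were tested by two-sided exact binomial tests in promoters with at least 10 counts, centred on the 501 promoters nearest in level, and called at an adjusted p under 0.05. Expected pairs were the product of coverage and a distance factor, with bin centres at least 30 kb away. In simulated data for TGFB1 over Control, 200 promoters with at least 100 counts over both libraries were raised 1.5-fold, with counting error only. For ends 108 of the 200 were called, with 8 others, among 20800 tested. Promoters with fewer counts and variation between cultures were thus not covered. For contacts 100 of 200 were called, with 2 others, among 21015. Intervals cover counting error only. The 9 genes, lists and tests were chosen with earlier results of these data known. All 9 genes are named, as are the highest, lowest and called genes of each list, transcripts starting within 10 kb, and up to 3 partner bins per start with at least 10 pairs. Alternatives changed centring, windows, mapping quality, start, distance, repeated fragment pairs and count minimum. Centring at the start with the most ends, the set of 51 nearest promoters and partner bins at downstream starts were added after seeing the data. Python 3.11.15, numpy 2.4.6, pandas 2.3.3, scipy 1.17.1 and matplotlib 3.10.9 were used.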

Additional observations from a re-analysis of the deposited data

How the results depend on the processing

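The calls depend most on the centre of the ratios, the median ratio being -0.91 for marked and -0.02 for unmarked promoters for ends in miR-9-LOF over Control. Each count here stands beside the share of all coding promoters called in either direction. With the median of all coding promoters as the centre, 1, 5 and 6 genes were called for ends in TGFB1 over Control, TGFB1+miR-9-LOF over TGFB1 and miR-9-LOF over Control, beside 11.4%, 24.3% and 50.7% of all. With library totals only they numbered 6, 6 and 8, beside 35.6%, 39.7% and 49.8%. With the median of marked promoters the second was 2 (26.3%), Zeb1 lower and Runx1 higher at its distal start. For contacts they numbered 2, 5 and 7 (4.95%, 7.48% and 38.6%) with the median of all promoters, and 4, 7 and 7 (18.1%, 20.0% and 46.5%) with library totals. The third was 5 (46.9%) with the median of marked promoters, with Zeb1, Zeb2 and Prrx1 lower and Runx1 and Runx2 higher at the distal start. At the start with the most ends, a choice made after seeing the data, 9 of 9 were called lower in miR-9-LOF over Control under the median of all promoters (53.9% of all for ends, 39.0% for contacts) and under library totals (52.3% and 47.7%). A window of 5 kb for ends gave 2 (3.22%) and 5 (19.2%) in the antagomiR comparisons. For contacts, 25 kb gave 2 in TGFB1 over Control (3.80%), 1 in each direction, and 5 in miR-9-LOF over Control (19.3%). In the latter 5 kb gave 1 (4.74%), the start with the most ends 5 lower (5.37% called lower), and pairs 200 kb to 2 Mb apart 0 (1.26%).

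Directions turned in these cases among values that passed the exact test before or after the change while sign changes of values that passed in neither are left out. Under the median of all promoters Twist2 had -0.56 for ends and -0.45 for contacts, and Snai1 -0.34 for contacts, in miR-9-LOF over Control. Under the median of marked promoters Runx1 had 0.61 and Runx2 0.11 for ends at the distal start. Under library totals Snai1 (-0.31) and Twist2 (-0.37) turned for ends in TGFB1 over Control, as did Twist2 for contacts (-0.29). There Prrx1 turned in TGFB1+miR-9-LOF over TGFB1, to -0.62 for ends and -0.36 for contacts. In miR-9-LOF over Control Twist2 turned to -0.97 for ends and -0.69 for contacts, and Snai1 to -0.57 for contacts. At the proximal start the contact ratios of Runx1 and Runx2 were -0.52 and -0.24. The Zeb1 calls for ends and contacts in miR-9-LOF over Control held in each alternative run except pairs 200 kb to 2 Mb apart, where the contact ratio was -0.50. No paired analysis was possible because each condition has 1 library.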
